A study of Mus musculus with 6 samples.

Results

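CDH5+ cells, sorted at day 8 after fibroblasts received 5 blood and endothelial transcription factors, were compared with untreated fibroblasts across all 26323 genes of the deposited table. The comparison uses 4 of the 6 arrays of the series, the columns labelled as CDH5+ and as untransduced. The CDH5+ cells are wild-type mouse embryonic fibroblasts (MEFs) that were transduced with lentiviral vectors for Erg, Gata2, Lmo2, Runx1c and Scl (gene symbol Tal1), kept in medium for blood cells, and selected at day 8 for VE-cadherin, the CDH5 protein, on their surface (2 arrays). They were set against wild-type MEFs that received none of the factors (2 arrays). Both were grown from E14.5 embryos, and cells bearing CD41, CD31, c-KIT or CD45 were removed from the fibroblasts before infection. The other 2 arrays hold c-KIT+ cells sorted at day 12, and entered the fit only to help estimate the spread. The CDH5+ sample is therefore a bulk sort on 1 surface protein from a transduced culture. It differs from the untreated cells at least in the vectors and the sort at once. The medium and the days in culture of the untreated cells were not given, so these may differ as well. The study calls the arrays biological replicates, without saying how the cultures were kept separate, so the p-values measure the spread between these arrays.

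VE-cadherin is the adhesion molecule of endothelial cell junctions. In the embryo the first blood stem and progenitor cells bud from hemogenic endothelium, flat cells that carry VE-cadherin and pass through an endothelial to hematopoietic transition, in which Runx1, Gata2, Tal1, Lmo2 and ETS factors such as Erg and Fli1 take part. Fibroblasts in culture carry a contrasting program of collagens, matrix proteins and contractile fibers, part of which is driven by TGF-beta, by YAP and TEAD, and by serum response factor. The expression of each gene was read as a log2 level on a Mouse Exon 1.0 ST array, as deposited. A difference is the mean of the CDH5+ arrays minus the mean of the untreated arrays on that scale, so that 1 unit is a 2-fold change. A gene was called when its limma adjusted p was under 0.05 over all genes.

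The sort marker set the groups apart. Cdh5 read 10.16 and 10.95 on the CDH5+ arrays, against 5.26 and 5.01 on the untreated arrays. The groups did not overlap, and the difference was 5.42 (SE 0.32, limma adjusted p = 0.00269). All 14 probe sets of Cdh5 were higher on both CDH5+ arrays than on both untreated arrays. For this and later counts of probe sets, the share over all probe sets was not computed. This gene was used to sort the cells, so its level is a check of the label and not a result.

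To tell signal from background, the 884 olfactory receptor genes on the array were taken as genes with little expression in either population. The 95th percentile of their means was 6.02 in CDH5+ cells and 5.80 in untreated MEFs, and a gene at or under it is said to lie within background. Where 1 of the groups lies within background, the log2 difference depends on the background of that gene's own probes. A lower bound on the fold is then given, with the 95th percentile in place of the dim group's mean. For Cdh5 that bound was at least 26.9-fold.

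Of 26323 genes, 254 were higher in CDH5+ cells, which is 0.965% of those tested, and 56 were lower, 0.213%. The higher calls had a median difference of 2.76 and the lower calls -2.02, and the smallest called difference was 1.30 in size, so the calls cover large changes. Of the 254 higher genes, 234 had an untreated mean within background, and 20 were above it. For 211 of them the bound could be computed, with a median of at least 3.17-fold, and 23 lay within background in both groups, so that their level above background was not shown in either. Of the 56 lower genes, 34 had a CDH5+ mean within background and 22 were above it. At an unadjusted p under 0.05, 1659 genes were higher (6.3%) and 2367 lower (8.99%). The groups' arrays did not overlap in 18.1% of all genes in the higher direction and 25.2% in the lower direction. The median difference of all genes was -0.07. Without either c-KIT+ array, which leaves the spread to the 4 arrays compared, 105 genes were higher and 9 lower, and 105 and 8 of these were also called with all 6. Protein-coding genes made up 240 of the higher and 49 of the lower calls. In bulk samples such as these, fewer cells of a type and less RNA per cell cannot be told apart.

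**Figure D1:**
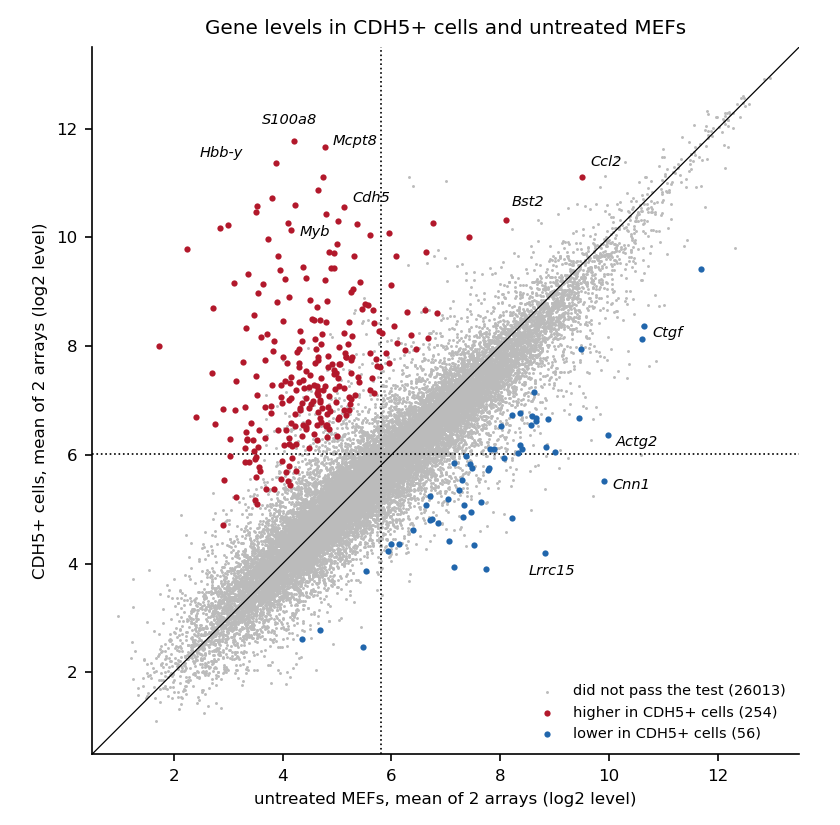
Each point is a gene, with its mean log2 level in CDH5+ cells on the vertical axis and in untreated MEFs on the horizontal axis, the genes called higher or lower are coloured, and dotted lines mark background at 6.02 and 5.80. Most of the 254 higher genes rise from the left of the plot, where 234 lie within the background of untreated MEFs, while the 56 lower genes lie below the diagonal.

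Among the 15 largest rises were genes of neutrophil granules, stefins, an embryonic globin and a lymphatic endothelial receptor. S100a8, a subunit of the neutrophil protein calprotectin, read 11.65 and 11.91 in CDH5+ cells, against 4.51 and 3.93 in untreated MEFs. Its difference was 7.56 (SE 0.26, limma adjusted p = 0.000868), at least 62.9-fold. The embryonic beta globin Hbb-y read 11.09 and 11.66 in CDH5+ cells, against 3.82 and 3.95 in untreated MEFs, at least 47.6-fold. In both genes the CDH5+ arrays stood far above both untreated arrays and close to each other. Lyve1, which binds hyaluronan on lymphatic and embryonic endothelium, read 9.85 and 10.69 in CDH5+ cells, against 4.2 and 4.0 in untreated MEFs, and its 12 probe sets were all higher on both CDH5+ arrays. Among the 15 largest falls were smooth muscle and matrix genes. Lrrc15, a membrane protein of activated fibroblasts, read 4.92 and 3.48 in CDH5+ cells, against 8.04 and 9.60 in untreated MEFs (difference -4.62, SE 0.65, limma adjusted p = 0.0422). Cnn1, which encodes calponin of smooth muscle, read 5.73 and 5.32 in CDH5+ cells, against 9.62 and 10.21 in untreated MEFs (difference -4.39, SE 0.28, limma adjusted p = 0.00382). The arrays of Lrrc15 were further apart within each group than those of Cnn1, and its SE was larger.

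**Figure D2:**
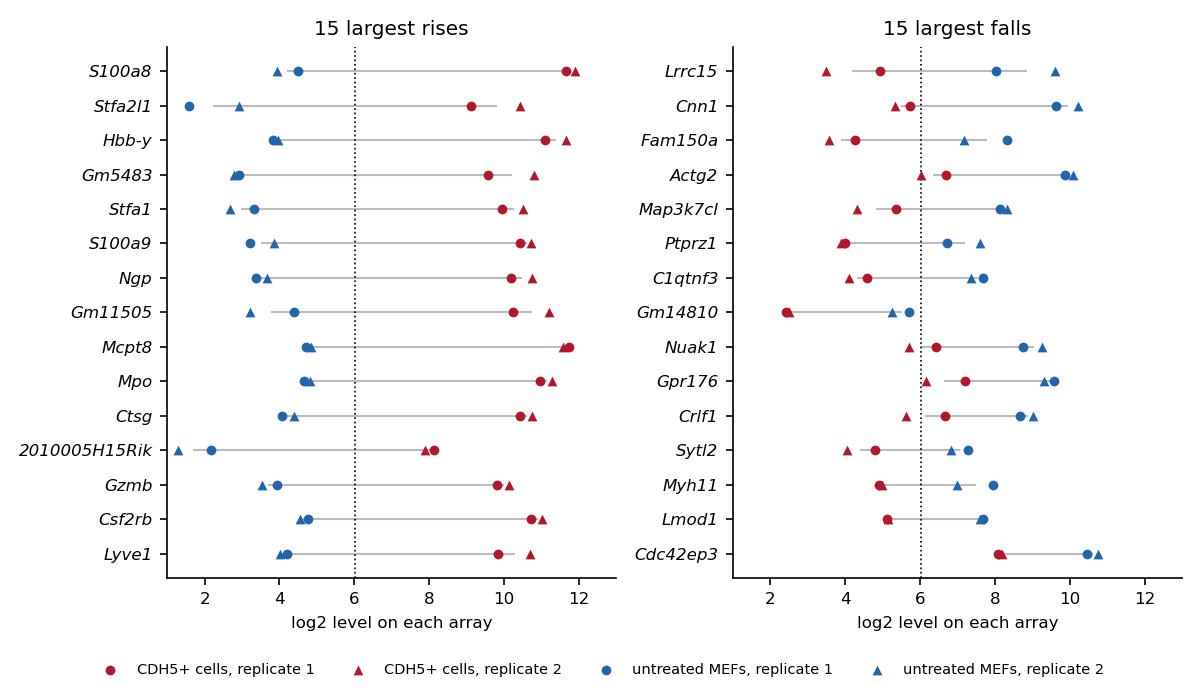
Log2 level on each array for 15 rises and 15 falls, the largest past the test, with CDH5+ cells and untreated MEFs in separate colours, grey lines between the group means and a dotted line at the background of 6.02. In every gene shown the CDH5+ points and the untreated points do not overlap, as the choice of genes required, and S100a8 reaches 11.91 on a CDH5+ array.

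The promoters of the higher genes, the lower genes and all genes tested were read for short motifs. These were motifs that the transduced factor families bind, and those of TEAD and serum response factor. Promoters of 300 bases, most of them before the start site, came from RefSeq (GRCm38.p6), and 177 of the 254 higher genes, 28 of the 56 lower genes and 15944 genes of all those tested had at least 1. The motif AGATAA of GATA factors, on either strand, was in 20.4% of the 216 promoters of higher genes, 6.06% of the 33 of lower genes and 9.11% of all 19676. The ETS motif CAGGAA was in 43.1% of those of higher genes, 27.3% of those of lower genes and 28.5% of all, and the RUNX motif TGTGGT in 22.7%, 18.2% and 14.2%. The E-box CAGATG, which TAL1 complexes bind, was in 13%, 15.2% and 14.4%, in the same order of sets, and the TEAD motif CATTCC in 16.2%, 12.1% and 13.6%. The CArG box of serum response factor was in 1.39%, 3.03% and 1.45%, which is 1 promoter of a lower gene. As 177 of the 254 higher and 28 of the 56 lower genes had a promoter in the table, the shares describe the matched genes only, and a comparison of the sets is void. The median GC content was 52.5% in the promoters of higher genes, 61.7% in those of lower genes and 57.3% in all. The shares were not adjusted for this base composition. A match is a description of the letters and not a bound site. The promoters below were picked by hand and are not typical. Each holds AGATAA, which was in 20.4% of the promoters of higher genes. Where a gene had several start sites, as Tal1, the site was chosen by how many of the motifs it held. The promoters below show the AGATAA match in an endothelial gene (Tek, chr4:94739039-94739338, + strand), a transduced factor (Tal1, chr4:115056176-115056475, + strand, 1 of 2 start sites), a mast cell gene (Cpa3, chr3:20242132-20242431, - strand) and a neutrophil gene (S100a9, chr3:90695672-90695971, - strand), and the CArG box in Myom1, a muscle gene that fell (chr17:71019307-71019606, + strand). Each is printed 5′ to 3′ on the gene's strand, with matches to the GATA, ETS and RUNX motifs on either strand in capitals, and in Myom1 also the CArG box, CCATAAAAGG. The Myom1 promoter held 1 GATA, 2 ETS and 1 RUNX match beside it. In Cpa3 the ETS and RUNX matches share 1 base.
Tek: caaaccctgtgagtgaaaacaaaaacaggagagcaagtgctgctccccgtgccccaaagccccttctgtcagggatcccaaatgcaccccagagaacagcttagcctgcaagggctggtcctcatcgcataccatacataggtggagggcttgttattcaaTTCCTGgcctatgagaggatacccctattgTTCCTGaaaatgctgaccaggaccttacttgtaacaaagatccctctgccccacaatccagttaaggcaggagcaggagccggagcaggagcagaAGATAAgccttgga
Tal1: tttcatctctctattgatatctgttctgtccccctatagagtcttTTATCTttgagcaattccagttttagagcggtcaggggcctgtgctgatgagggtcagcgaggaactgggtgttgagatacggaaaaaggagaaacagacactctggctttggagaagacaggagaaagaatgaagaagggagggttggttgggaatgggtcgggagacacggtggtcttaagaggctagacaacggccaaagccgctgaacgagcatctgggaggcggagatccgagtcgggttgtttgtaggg
Cpa3: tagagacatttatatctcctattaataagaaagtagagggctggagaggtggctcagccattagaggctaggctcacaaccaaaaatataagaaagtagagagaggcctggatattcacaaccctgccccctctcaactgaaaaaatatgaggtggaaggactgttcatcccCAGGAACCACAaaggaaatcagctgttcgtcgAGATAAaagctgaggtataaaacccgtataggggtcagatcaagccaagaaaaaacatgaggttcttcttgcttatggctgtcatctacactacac
S100a9: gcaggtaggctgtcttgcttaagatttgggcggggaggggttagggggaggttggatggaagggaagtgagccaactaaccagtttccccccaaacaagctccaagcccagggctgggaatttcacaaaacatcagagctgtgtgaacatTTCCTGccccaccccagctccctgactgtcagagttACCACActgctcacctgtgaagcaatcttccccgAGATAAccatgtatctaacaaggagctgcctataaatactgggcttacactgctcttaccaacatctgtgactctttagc
Myom1: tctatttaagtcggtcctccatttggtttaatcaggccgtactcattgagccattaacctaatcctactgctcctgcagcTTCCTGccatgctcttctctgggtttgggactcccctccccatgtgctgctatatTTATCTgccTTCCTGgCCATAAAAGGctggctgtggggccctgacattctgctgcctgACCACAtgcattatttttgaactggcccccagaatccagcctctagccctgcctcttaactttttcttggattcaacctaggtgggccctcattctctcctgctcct

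Of the 5 transduced factors, 4 were higher in CDH5+ cells. Gata2 read 8.45 and 8.39 in CDH5+ cells, against 5.29 and 6.07 in untreated MEFs, and Erg read 7.69 and 8.05 in CDH5+ cells, against 4.93 and 5.38 in untreated MEFs. In neither gene did the groups overlap. Lmo2 had a difference of 2.61 and Tal1 of 2.42, with limma adjusted p-values of 0.00727 and 0.00677. Runx1 stood apart from these, with 8.64 and 8.54 in CDH5+ cells, against 8.55 and 8.37 in untreated MEFs (difference 0.13, limma adjusted p = 0.82). Untreated MEFs thus already read well above background for Runx1. Of its 20 probe sets, 6 were higher and 2 lower on both CDH5+ arrays, with a median difference of 0.16 and a range of -0.46 to 2.10. All 10 probe sets of Tal1 were higher on both CDH5+ arrays, and so were 11 of the 12 of Gata2, with 1 lower. The rise was less even in the others, with 9 of 13 probe sets of Erg and 6 of 10 of Lmo2 higher. None of Erg or Lmo2 was lower on both. The places of the probe sets in the transcripts were not analysed here, so RNA of the endogenous gene was not told apart from RNA of the vector. None of the 4 was called without CDH5+ replicate 2, and 2 were called without either c-KIT+ array.

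Blood transcription factors other than the transduced ones rose in 12 of 38 genes measured, none fell, and the median difference of the list was 0.28. Myb, which definitive blood progenitors need, read 9.99 and 10.27 in CDH5+ cells, against 3.84 and 4.47 in untreated MEFs (difference 5.97, SE 0.27, limma adjusted p = 0.00158). The untreated arrays lay within background and the CDH5+ mean was at least 20.0-fold higher. Cebpe, a factor of late granulocyte maturation, was 3.76 higher, Nfe2, a factor of platelet formation and red cells, 2.96 higher and Ikzf1, which encodes Ikaros, 2.89 higher. Spi1, which encodes PU.1 of the myeloid and B lineages, read 7.01 and 7.54 in CDH5+ cells, against 4.38 and 4.77 in untreated MEFs. Fli1, an ETS factor of endothelium and megakaryocytes, was above background in both groups, with 8.56 and 8.75 in CDH5+ cells and 6.48 and 6.75 in untreated MEFs. Gata1, the factor of the red cell and megakaryocyte lineages, did not pass the test, with 5.96 and 5.91 in CDH5+ cells and 5.03 and 4.96 in untreated MEFs (difference 0.94, limma adjusted p = 0.103). All 4 of its values were within background. The list had 2 calls without CDH5+ replicate 2, 7 without untreated replicate 1 and 5 without either c-KIT+ array.

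Endothelial receptors and junction genes rose in 16 of 63 genes measured, Cdh5 included, and none fell. The median difference was 1.46, against -0.07 over all genes. Cd93, a receptor of endothelium and of blood progenitors, read 8.97 and 9.83 in CDH5+ cells, against 4.44 and 3.46 in untreated MEFs. Aplnr, the apelin receptor, was 4.44 higher (SE 0.33, limma adjusted p = 0.00554), and Myct1 4.50 higher. The CDH5+ arrays of these genes lay above background and the untreated arrays did not. Pecam1, which encodes the junction protein CD31, read 7.24 and 8.55 in CDH5+ cells, against 4.11 and 4.41 in untreated MEFs. Tek, the angiopoietin receptor, read 7.0 and 7.72 in CDH5+ cells, against 3.83 and 4.27 in untreated MEFs. Emcn, Esam, Egfl7 and Cldn5, further genes of the endothelial surface, junctions and secretome, were 3.0 to 3.34 higher. Kdr, a VEGF receptor, was not called, with 5.76 and 7.24 in CDH5+ cells and 3.82 and 4.26 in untreated MEFs (difference 2.47, limma adjusted p = 0.101). Nor were Flt4 and Tie1, which were 2.34 and 2.00 higher, or Eng, whose untreated arrays at 8.11 and 7.15 met its CDH5+ arrays at 8.12 and 8.42. Levels were higher on CDH5+ replicate 2 than on replicate 1 in 49 of the 63 genes. The median gap was 0.45, against -0.08 over all genes. The 16 calls became 6 without CDH5+ replicate 2, 9 without either untreated array and 7 without either c-KIT+ array.

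Of 23 SoxF, ETS and other factors of endothelium, 3 rose and none fell, with a median difference of -0.03. They were the SoxF genes Sox18, 3.33 higher, and Sox7, 2.94 higher, and Bcl6b, 3.04 higher. Sox17, the remaining SoxF gene, read 5.48 and 6.66 in CDH5+ cells, against 4.56 and 5.04 in untreated MEFs (limma adjusted p = 0.248). None of the 3 was called without CDH5+ replicate 2, without either untreated array or without either c-KIT+ array, and without untreated replicate 1 the list had 3 lower calls.

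Genes that most white blood cells carry rose in 17 of 31, none fell, and the median difference was 2.37. Cd53, a tetraspanin, read 9.51 and 9.91 in CDH5+ cells, against 6.00 and 3.87 in untreated MEFs. Tyrobp, the signalling adaptor DAP12, was 4.36 higher and Srgn, which encodes the granule proteoglycan serglycin, 4.33 higher. Lcp2, the adaptor SLP-76, read 7.59 and 8.30 in CDH5+ cells, against 4.28 and 4.33 in untreated MEFs (difference 3.64, SE 0.28, limma adjusted p = 0.00591). Itgb2, the integrin chain CD18, was 3.09 higher. Ptprc, which encodes CD45, the defining surface protein of white blood cells, did not follow them. It read 3.82 and 3.78 in CDH5+ cells, against 3.76 and 3.67 in untreated MEFs (difference 0.08, limma adjusted p = 0.89), and all 4 values lay within background. Of its 53 probe sets 13 were higher and 8 lower on both CDH5+ arrays, with a median difference of 0.15. At the level of genes, the arrays did not overlap in 18.1% of all genes in the higher and 25.2% in the lower direction. The 17 calls became 2 without CDH5+ replicate 2, 11, beside 1 lower, without untreated replicate 1 and 8 without either c-KIT+ array.

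Leukocyte signalling and cytoskeleton genes rose in 10 of 48, with a median of 1.04, and Fc and immunoglobulin-like receptors in 11 of 39, with a median of 1.01. None of either list fell. Plek, a substrate of protein kinase C in platelets and leukocytes, was 4.08 higher and Cd33, a sialic acid receptor of myeloid cells, 3.94 higher. Lilrb4, an inhibitory receptor, read 9.31 and 10.02 in CDH5+ cells, against 4.33 and 3.50 in untreated MEFs. Its neighbour Gp49a was 5.07 higher, but their sequences are close enough for probes to be shared, so that their separate calls are uncertain. Inpp5d, which encodes the phosphatase SHIP1, was 2.76 higher, while Vav1, a guanine exchange factor of blood cells, was 1.92 higher without passing the test (limma adjusted p = 0.0701). Without CDH5+ replicate 2 the calls were 2 in the signalling list and 5 in the receptor list, and without untreated replicate 1 they were 6 and 7, while without untreated replicate 2 the receptor list had 7. Without either c-KIT+ array they were 2 and 6.

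Genes of neutrophil and other granules were prominent among the rises. Of 18 primary granule genes 8 rose, with a median difference of 3.23, and of 30 late granule and calprotectin genes 10 rose, with a median of 1.97. The primary list also holds eosinophil genes, such as Prg2 and Epx, and Srgn, which the white blood cell list counts too. Its counts are therefore not of neutrophil genes alone. None fell. Mpo, the primary granule enzyme myeloperoxidase, read 10.95 and 11.29 in CDH5+ cells, against 4.65 and 4.83 in untreated MEFs (difference 6.38, SE 0.21, limma adjusted p = 0.000868), at least 39.8-fold. Ctsg, the protease cathepsin G, read 10.43 and 10.74 in CDH5+ cells, against 4.06 and 4.38 in untreated MEFs. The gap between the groups was many times the gap between the arrays of either group. Elane and Prtn3, proteases of the same granules, were 3.79 and 3.23 higher. Of the late genes, Ngp was 6.95 higher, Camp, which encodes the cathelicidin peptide, 4.87 higher, and Ltf, which encodes lactoferrin, 3.47 higher. Ly6g, a surface marker of mature neutrophils, read 8.09 and 9.31 in CDH5+ cells, against 3.24 and 2.19 in untreated MEFs. Prg2, the major basic protein of eosinophils, was 5.28 higher, and Epx, the eosinophil peroxidase, read 7.52 and 9.35 in CDH5+ cells, against 4.74 and 4.9 in untreated MEFs, without passing the test (limma adjusted p = 0.0627). Lyz2, lysozyme of neutrophils and macrophages, read 10.76 and 11.11 in CDH5+ cells, against 7.61 and 5.18 in untreated MEFs (limma adjusted p = 0.066). Its untreated arrays were further apart than its CDH5+ arrays. The primary granule calls became 5 and the late granule calls 6 without CDH5+ replicate 2, and without untreated replicate 2 the late list had 1 lower call.

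Stefins, small inhibitors of cysteine proteases that lie in a cluster of duplicated genes, rose in 7 of 9, with a median difference of 6.05. Stfa1 read 9.95 and 10.52 in CDH5+ cells, against 3.31 and 2.67 in untreated MEFs, and Stfa3 was 6.05 higher. Stfa2l1 and Gm5483 were 7.53 and 7.33 higher, with SEs of 0.59 and 0.42. Cstb, which encodes cystatin B, a widely expressed member of the family, read 10.59 and 10.04 in CDH5+ cells and 10.24 and 10.95 in untreated MEFs, and its groups overlapped. The copies of the cluster are nearly alike in sequence, so their 7 calls may not be separate. With the median of the probe sets as a gene's value, only 4 of the 9 had a value, and 3 of these 4 were called.

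Mast cell and basophil genes rose in 15 of 38, none fell, and the median difference was 1.83. Mcpt8, a protease of basophils, read 11.74 and 11.57 in CDH5+ cells, against 4.70 and 4.86 in untreated MEFs (difference 6.88, SE 0.19, limma adjusted p = 0.000868), at least 57.7-fold. Prss34, another basophil and mast cell protease, was 5.63 higher, and Cpa3, carboxypeptidase A of mast cell granules, read 9.45 and 8.85 in CDH5+ cells, against 3.77 and 3.50 in untreated MEFs. The receptor chains Csf2rb, shared by the receptors for IL-3, IL-5 and GM-CSF, and Csf2rb2, which serves IL-3 in mice, were 6.23 and 5.19 higher, and as close copies they may share probes. Mcpt1 and Mcpt2, proteases of mucosal mast cells, did not pass the test. Mcpt2 read 9.53 and 5.96 in CDH5+ cells, against 3.78 and 4.23 in untreated MEFs (limma adjusted p = 0.206), and Mcpt1 read 9.33 and 6.62 in CDH5+ cells, against 4.23 and 4.70 in untreated MEFs. In both, CDH5+ replicate 1 was well above replicate 2, unlike the 28 of 38 genes of the list that were higher on replicate 2. The chains of the high-affinity IgE receptor specific to these cells stayed within background, Fcer1a at 3.95 and 4.14 in CDH5+ cells and 3.61 and 3.82 in untreated MEFs, and Ms4a2 at 4.25 and 4.30 in CDH5+ cells and 3.89 and 3.81 in untreated MEFs. The list had 10 calls without CDH5+ replicate 2.

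In the red cell lineage, 4 of 27 genes of red cell surface and metabolism rose, with a median difference of 0.78, and 3 of 20 globin and heme synthesis genes rose, with a median of 0.02. The globins called in that list were embryonic ones. Beside Hbb-y, Hba-x read 8.48 and 9.08 in CDH5+ cells, against 5.37 and 5.66 in untreated MEFs, and Hbb-bh1 read 5.96 and 6.29 in CDH5+ cells, against 3.08 and 3.54 in untreated MEFs. The adult beta globins Hbb-bt and Hbb-bs, which were not in the list, were called too, 4.82 and 3.10 higher (limma adjusted p = 0.00165 and 0.0063). These adult copies are nearly identical and can share probes. Car2, carbonic anhydrase, was 3.52 higher. Klf1, a factor that red cells need, and Epor, the erythropoietin receptor, did not pass, at 0.98 and 0.81 higher, and Alas2, the first enzyme of heme synthesis in red cells, read 5.64 and 6.73 in CDH5+ cells, against 4.95 and 4.49 in untreated MEFs (limma adjusted p = 0.194). Without CDH5+ replicate 2 each of these lists had 1 call, and without either c-KIT+ array the red cell list had 2.

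Megakaryocyte and platelet genes rose in 16 of 44, none fell, and the median difference was 1.10. Pf4, platelet factor 4, read 9.24 and 8.57 in CDH5+ cells, against 4.50 and 3.74 in untreated MEFs (difference 4.79, SE 0.35, limma adjusted p = 0.00533). Itga2b, which encodes CD41, was 2.62 higher, and Selp, P-selectin of platelets and endothelium, read 7.62 and 7.75 in CDH5+ cells, against 4.30 and 4.31 in untreated MEFs. Both arrays of CDH5+ cells lay above both untreated arrays in each. Gp1bb, a chain of the von Willebrand factor receptor, lay on the other side, with 5.99 and 5.63 in CDH5+ cells and 6.32 and 6.75 in untreated MEFs, and Ppbp, a platelet chemokine, read 8.66 and 6.83 in CDH5+ cells and 5.78 and 7.41 in untreated MEFs. Neither passed the test, and the arrays of Ppbp overlapped. The 16 calls became 10 without CDH5+ replicate 1, 3 without CDH5+ replicate 2, and 9 without untreated replicate 1 or either c-KIT+ array.

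Receptors and surface markers of blood progenitors rose in 9 of 36, with a median difference of 0.71. Kit, the receptor for stem cell factor, read 6.98 and 7.30 in CDH5+ cells, against 4.54 and 4.73 in untreated MEFs, and 23 of its 25 probe sets were higher on both CDH5+ arrays. Cxcr4, the receptor for the chemokine CXCL12, was 4.56 higher (SE 0.30, limma adjusted p = 0.0043), and Gpr56, an adhesion receptor of blood stem cells, 3.76 higher. Cd34, a sialomucin of progenitors and endothelium, read 9.42 and 9.88 in CDH5+ cells, against 7.50 and 6.06 in untreated MEFs, which did not pass (limma adjusted p = 0.0685). The list had 4 calls without CDH5+ replicate 2, and 1 lower call beside its higher ones without CDH5+ replicate 1.

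Other immune lists moved little or in part. Monocyte and macrophage genes rose in 2 of 43, with a median of 0.29, and Csf1r, the receptor that macrophages need, read 5.40 and 5.58 in CDH5+ cells, against 5.62 and 5.64 in untreated MEFs. Before adjustment, limma gave 13 of the 43 a p under 0.05 with higher levels and 1 with a lower level. Over all genes the shares were 6.3% and 8.99%. Of 50 chemokine and cytokine genes 6 rose, among them Ccl6, 4.88 higher, and Ccl2, which was above background in both groups at 11.14 and 11.10 in CDH5+ cells and 9.55 and 9.45 in untreated MEFs. Of 8 Gimap GTPases, genes of lymphocytes and of other blood and endothelial cells, 3 rose. Interferon response genes rose in 2 of 37, Bst2 and Rsad2, and 35 of the 37 were lower on CDH5+ replicate 2 than on replicate 1. Their median gap was -0.61, against -0.08 over all genes. No gene of antigen presentation was called by limma among 23, while before adjustment 7 of them had a p under 0.05 with higher levels and 1 with a lower level. The list of B, T and NK cell genes had 1 call of 35, Nkg7, a granule membrane protein of cytotoxic cells, and the median was 0.05. Without CDH5+ replicate 2 the chemokine list had 2 calls and the macrophage, Gimap and interferon lists none. The chemokine list had 3 without either untreated array, the macrophage list 1 without untreated replicate 2, the Gimap list none without untreated replicate 1 and 1 without untreated replicate 2, and the interferon list none without CDH5+ replicate 1 or untreated replicate 2 and 1 without untreated replicate 1. Without either c-KIT+ array the chemokine list had 2, the Gimap list 1 and the macrophage and interferon lists none. A lower call appeared in the chemokine list without untreated replicate 2 and in the macrophage list without CDH5+ replicate 1.

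**Figure D3:**
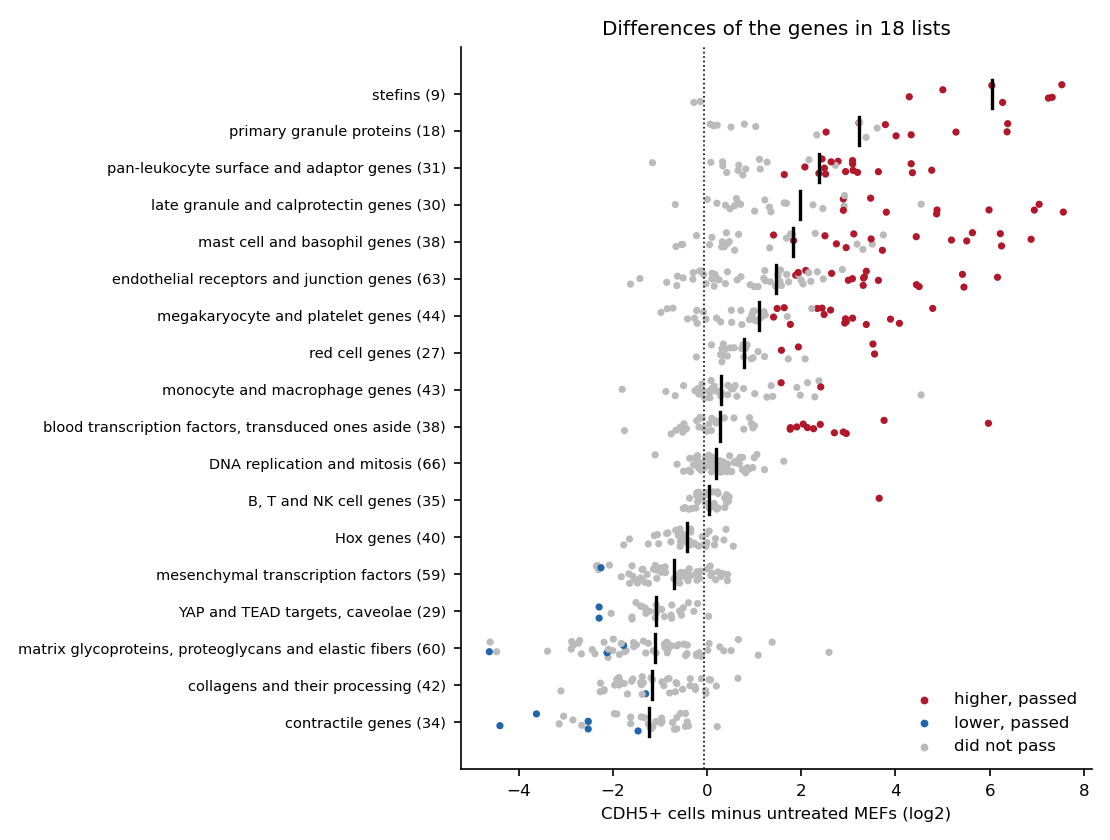
Differences between CDH5+ cells and untreated MEFs on the log2 scale for the genes of 18 lists, with 1 point a gene, coloured where called, a bar at each list's median and a dotted line at the median of all genes. The stefins have their median at 6.05 and the contractile genes at -1.22. The list of lymphoid genes at 0.05 lies close to the median of all genes, -0.07, and that of macrophage genes at 0.29 lies above it.

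Of the 254 higher genes, 20 were above background in untreated MEFs already. Ctla2a, a cathepsin inhibitor, read 10.26 and 10.28 in CDH5+ cells, against 7.42 and 6.10 in untreated MEFs, and Serpina3g, a serine protease inhibitor of blood cells, was 3.57 higher. Sp110, a nuclear body protein, read 9.33 and 10.13 in CDH5+ cells, against 6.69 and 6.57 in untreated MEFs. These differences do not rest on a value within background. Peg10, an imprinted gene, was 2.59 higher, and Itgb3, the integrin chain of platelets and endothelium, 2.34 higher. Rab38, a small GTPase of lysosome-related organelles, read 9.35 and 8.90 in CDH5+ cells, against 5.99 and 6.00 in untreated MEFs.

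Some of the genes that rose lie near each other in the genome. Of the 254, 249 could be placed in the RefSeq gene order, and 57 of these fell into 26 runs in which a called gene had another no more than 3 genes away. The runs included S100a8 with S100a9, Prtn3 with Elane, Mcpt8 with Ctsg, Gimap9 with Gimap4 and Gimap6, Hbb-bh1 with Hbb-y, and Robo4 with Esam. Several are families of copied genes, as the stefins and the Csf2rb pair, whose members may share probes, while Robo4 and Esam are unlike in sequence. The lower genes, of which there were only 56, formed no run. These counts carry no test. The share of all genes that would fall into runs was not computed, so the counts do not show clustering.

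Contractile genes fell in 5 of 34, none rose, and the median difference was -1.22, with 1 member positive. Beside Cnn1, Actg2, the gamma actin of smooth muscle, read 6.70 and 6.03 in CDH5+ cells, against 9.88 and 10.08 in untreated MEFs (difference -3.62, SE 0.32, limma adjusted p = 0.00899). Myh11, smooth muscle myosin, and Lmod1, an actin nucleator of smooth muscle, each had a difference of -2.52, and Myh10, a nonmuscle myosin, -1.46. Of the 13 probe sets of Cnn1, 12 were lower on both CDH5+ arrays. Tagln, transgelin, read 7.46 and 5.85 in CDH5+ cells, against 9.24 and 10.16 in untreated MEFs, and Acta2, the alpha actin of myofibroblasts, 10.52 and 9.08 in CDH5+ cells, against 12.27 and 12.36 in untreated MEFs. Neither passed the test (limma adjusted p = 0.0914 and 0.0922), although all 11 probe sets of Acta2 were lower on both CDH5+ arrays. CDH5+ replicate 2 was lower than replicate 1 in 28 of the 34 contractile genes. The median gap was -0.35, against -0.08 over all genes. Without CDH5+ replicate 2 only Cnn1 was still called, and without either c-KIT+ array 3 genes of the list were.

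Of 29 YAP and TEAD targets and caveola genes 2 fell, with a median of -1.08, of 50 TGF-beta and BMP pathway genes 2 fell, with a median of -0.47, and of 41 matrix proteases and inhibitors 2 rose and 1 fell, with a median of -0.69. Ctgf, a matricellular protein and target of YAP, read 8.38 and 8.35 in CDH5+ cells, against 10.67 and 10.63 in untreated MEFs (difference -2.29, SE 0.19, limma adjusted p = 0.00714). Its CDH5+ level stayed well above background. Tgfb2, a TGF-beta ligand, had a difference of -2.29, and Ltbp1, which binds latent TGF-beta in the matrix, -2.12. Without CDH5+ replicate 2 none of these genes fell by the test. The YAP list had 4 lower calls without CDH5+ replicate 1 and 1 without either untreated or either c-KIT+ array. The TGF-beta list had no lower call without untreated replicate 1 or either c-KIT+ array and 1, beside 2 higher ones, without untreated replicate 2. The proteases that rose were Mmp8, a neutrophil collagenase, 2.89 higher, and Adam8 of leukocytes, 2.25 higher. In that list 29 of the 41 genes had a negative difference. No gene of it was called in either direction without CDH5+ replicate 2, 3 were lower without CDH5+ replicate 1, and 1 was higher without untreated replicate 2 or either c-KIT+ array.

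Collagens fell in 1 of 42, with a median of -1.17, and matrix glycoproteins, proteoglycans and elastic fiber genes in 3 of 60, with a median of -1.11. The 3 were Lrrc15, Ltbp1 and Eln, which encodes elastin, and the collagen was Col2a1, at 5.82 and 5.90 in CDH5+ cells and 7.18 and 7.14 in untreated MEFs. Some large differences were not called. Col1a1, the main chain of type I collagen, read 9.66 and 7.85 in CDH5+ cells, against 11.32 and 10.72 in untreated MEFs (limma adjusted p = 0.173), and Aspn, the matrix proteoglycan asporin, 7.18 and 4.80 in CDH5+ cells, against 11.10 and 10.09 in untreated MEFs (limma adjusted p = 0.0712). Dcn, decorin, overlapped, with 11.47 and 10.39 in CDH5+ cells and 11.86 and 7.82 in untreated MEFs. Across the collagens 36 of 42 were lower on CDH5+ replicate 2 than on replicate 1. The median gap was -0.90, against -0.08 over all genes. Without CDH5+ replicate 1, 6 collagens and 7 matrix genes were called lower, and without CDH5+ replicate 2 none of either. Without either untreated array no collagen was called, and without either c-KIT+ array no gene of either list was.

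Mesenchymal transcription factors fell in 1 of 59, Scx, the tendon factor scleraxis, with a median of -0.70. Prrx1 and Snai2, factors of limb mesenchyme and of epithelial to mesenchymal transition, read 7.88 and 5.79, and 8.66 and 6.45, in CDH5+ cells, against 9.51 and 8.84, and 9.77 and 9.95, in untreated MEFs. Both differences, -2.35 and -2.30, missed the threshold. This list had 4 lower calls without CDH5+ replicate 1 and none without CDH5+ replicate 2, untreated replicate 2 or either c-KIT+ array. Axon guidance genes split, with 3 higher and 3 lower of 45. Robo4, Sema4a and Sema4d, of endothelium and immune cells, rose by 2.10, 2.04 and 1.33 on the log2 scale. Sema3a, Unc5b and Ntn4 fell by 1.49, 2.01 and 1.61 on the log2 scale. None of these 6 was called without CDH5+ replicate 2, untreated replicate 1 or either c-KIT+ array, and the 3 lower ones were not called with any of the 4 arrays left out. Of the list, 1 gene was higher without untreated replicate 2.

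Several lists had no call in either direction, among them DNA replication and mitosis (66 genes), Hox genes (40), Wnt pathway genes (51), cadherins and other adhesion genes (45) and pluripotency and early mesoderm genes (21). At an unadjusted p under 0.05, limma gave 20 Wnt, 19 cadherin, 8 Hox and 1 replication gene lower, and 2 cadherin, 2 replication, 2 pluripotency and 1 Hox gene higher. In the pluripotency list the median was 0.04, and Nanog read 5.04 and 4.44 in CDH5+ cells and 4.39 and 4.63 in untreated MEFs, all within background. The replication genes differed between the untreated arrays. In 63 of the 66 genes the level was higher on untreated replicate 2 than on replicate 1, with a median gap of 2.21. Mki67, a marker of cycling cells, read 8.12 and 8.56 in CDH5+ cells and 5.48 and 8.77 in untreated MEFs. Without untreated replicate 2, 17 of the 66 were called higher in CDH5+ cells and the median difference was 1.40, while without untreated replicate 1 it was -0.81, with 1 gene lower, against 0.19 with all arrays. Other lists gained calls as well. Without CDH5+ replicate 1 the cadherin list had 5 lower, the Wnt list 2 lower and the pluripotency list 1 higher. Without untreated replicate 2 the Wnt list had 3 lower and the cadherin list 1, and without untreated replicate 1 the pluripotency list had 1 lower. The Hox list had no call with any array left out.

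The 2 CDH5+ arrays differed in degree. Of the 254 higher genes, 212 were higher on replicate 2 than on replicate 1, with a median gap of 0.37, and of the 56 lower genes 45 were lower on replicate 2, with a median gap of -0.31, while the median gap over all genes was -0.08. The gap is not independent of the calls, which used these arrays. The widest gaps between the CDH5+ arrays were in matrix and secreted genes, such as Ptn, a secreted growth factor, at 9.13 and 4.67, and Ogn, the proteoglycan osteoglycin, at 8.81 and 4.96. The untreated arrays were further apart in some genes. Hp, the plasma protein haptoglobin, read 8.48 and 8.42 in CDH5+ cells and 11.74 and 5.15 in untreated MEFs, and Xist, the noncoding RNA of the inactive X chromosome, 9.01 and 9.39 in CDH5+ cells and 10.10 and 3.95 in untreated MEFs. Pearson correlations across genes, which are not independent replicates, were 0.944 for the CDH5+ pair and 0.907 for the untreated pair.

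**Figure D4:**
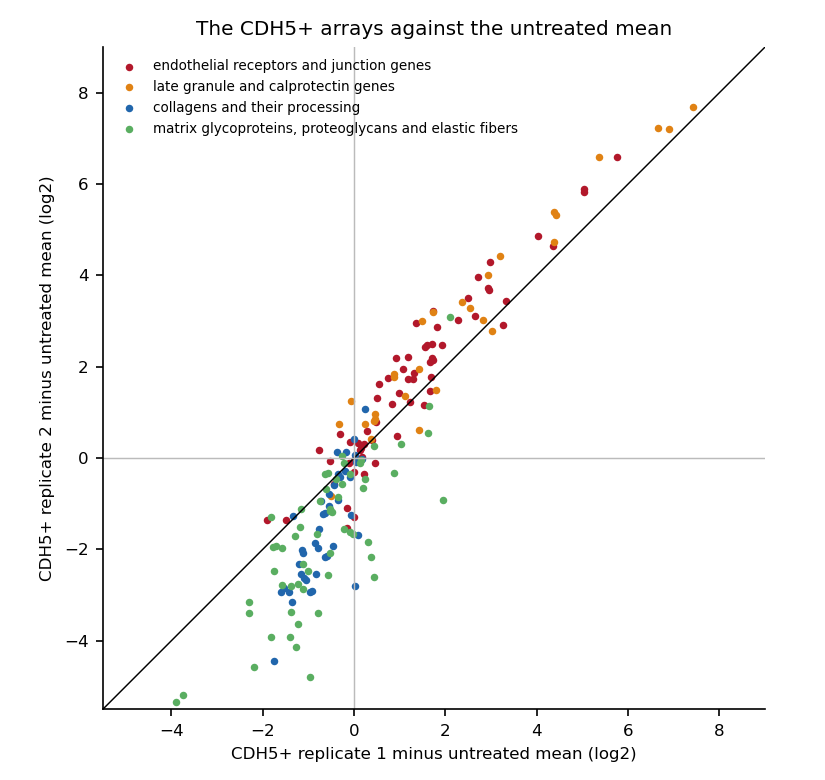
Log2 level on CDH5+ replicate 1 (horizontal) and replicate 2 (vertical), each minus the untreated mean, for the genes of 4 lists, with a diagonal of equal values. Of 63 endothelial genes 49 and of 30 late granule genes 25 lie above the diagonal, while 36 of 42 collagens and 53 of 60 matrix genes lie below it. Over all genes the median of replicate 2 minus replicate 1 was -0.08.

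The markers of cell types were read on each array as a mean log2 level. The 10 fibroblast markers were at 9.68 and 7.66 in CDH5+ cells, against 10.8 and 9.07 in untreated MEFs, all 10 were above background in both groups and none was called. The 10 endothelial markers, which include the sort gene Cdh5, were at 7.42 and 8.24 in CDH5+ cells, against 4.76 and 4.86 in untreated MEFs. Of these 7 were called higher, among them Cdh5, whose level is only a check of the label. The sorted sample held RNA of fibroblast genes beside that of endothelial genes, and the fibroblast markers were higher and the endothelial markers lower on its replicate 1. The 6 neutrophil markers were at 9.37 and 9.86 in CDH5+ cells, against 4.33 and 4.41 in untreated MEFs, all 6 called, and the 6 pan-leukocyte markers at 6.54 and 6.99 in CDH5+ cells, against 4.51 and 4.23 in untreated MEFs, with 4 called. Markers of macrophages (6), of T, B and NK cells (6), of epithelium (5), of skeletal muscle (5), of neural cells (5) and of pluripotent cells (4) had no call. The part of other cell types in the called differences was not tested.

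**Figure D5:**
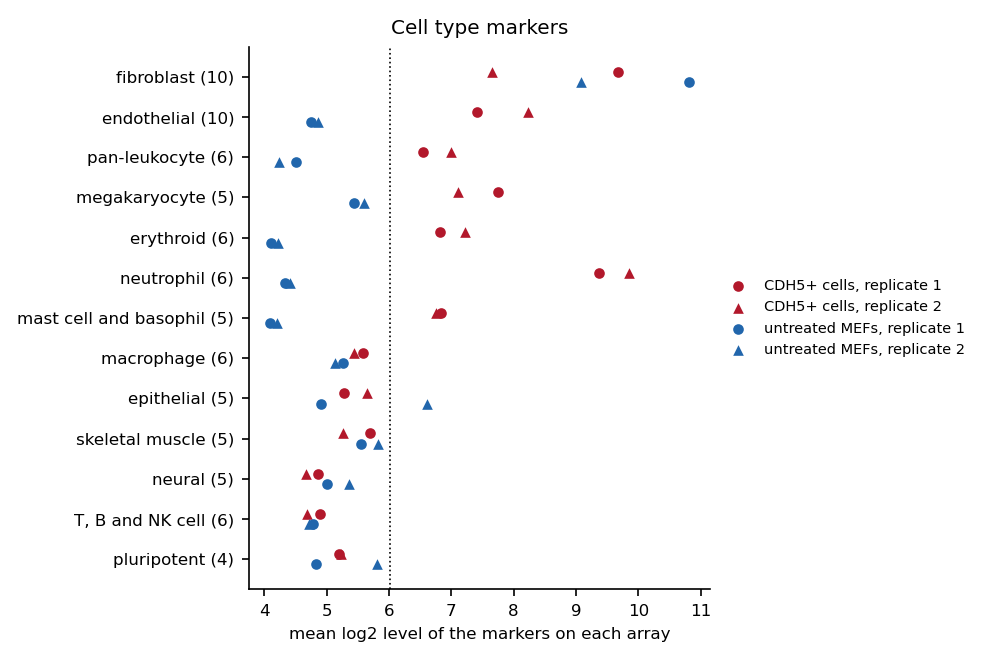
Mean log2 level of the markers of each cell type on each array, CDH5+ cells drawn above untreated MEFs, with a dotted line at the background of 6.02. The sets with a called marker are the neutrophil, endothelial, erythroid, mast cell and basophil, megakaryocyte and pan-leukocyte ones. Each of these is higher on both CDH5+ arrays than on both untreated arrays, and the endothelial set includes the sort gene Cdh5. The fibroblast markers of CDH5+ replicate 1, at 9.68, lie between the untreated arrays at 10.8 and 9.07.

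At day 12, the c-KIT+ mean lay above the CDH5+ mean in 201 of the 254 higher genes and below it in 36 of the 56 lower genes. Over all genes it lay above in 59.5% and below in 40.5%. By limma no gene was called between c-KIT+ and CDH5+ cells, and at an unadjusted p under 0.05, 2944 were higher and 1261 lower in c-KIT+ cells. The counts over the called genes share the CDH5+ arrays with the calls and carry no test.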

How the data were processed

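The deposited values are normalized log2 levels per gene (26323 Ensembl genes) and per probe set on 6 Mouse Exon 1.0 ST arrays, 2 for each group. The method of normalization, its software and the genome build were not given in the sources used here, nor whether cells were pooled for an array. All columns of samples were used, so 0 columns were left out. A linear model of 3 group means over the 6 arrays (limma 3.58.1, R 4.3.3, lmFit and eBayes) was applied to each gene, and the contrast of CDH5+ cells minus untreated MEFs was adjusted by Benjamini-Hochberg over all genes. The number of arrays limits the precision. The comparison, the lists and the rules were chosen with earlier results of these data known.

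Genes to name were picked by rule, and the text names only part of those picked. They were the 15 largest rises and falls past the test and the 12 largest of each that do not end or begin within background. Up to 6 called and 4 uncalled members of each of 47 lists were also picked, as were the sorted and transduced genes. The cell type markers and the 6 widest gaps of each pair of arrays were picked too. Hbb-bt, Hbb-bs, Acta2 and Myom1 were chosen after their values were seen. Of 1715 list entries 1680 matched a gene, and some members are counted but not reported by name here. On simulated data of 26323 genes in 10 sets, the fit for this contrast recovered 2.4% of changes of 1, 72.6% of 2, 95.0% of 3 and 97.4% of 4 log2 units, and 5.51% of the genes called had not been changed. The noise in these sets was independent and normal, with its spread taken from the fit itself. The rates hold for such data, and the real arrays need not vary in that way. Alternatives were the 4 arrays alone, the replicate block, each array left out, quantile normalization, centring on the median, a dim gene filter, a single row for each symbol, an intensity trend, robust variances, a joint F-test, a minimum difference of 1 and the median of probe sets.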

Additional observations from a re-analysis of the deposited data

How the results depend on the processing

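Main counts were 254 higher and 56 lower genes. Fitting only the 4 arrays of the comparison gave 105 and 9. A minimum difference of 1 (limma's treat) gave 104 and 4. The dim filter, with 11756 genes, gave 111 lower genes, and the median of probe sets, with 17449 genes, 91. Leaving out each array in turn gave 66 to 254 higher and 1 to 87 lower genes. The arrays that moved a count by over 1.5 times were CDH5+ replicate 2 (66 and 1 without it), either c-KIT+ array (105 and 9), CDH5+ replicate 1 (87 lower) and untreated replicate 2 (85 lower). The genes called changed more than the counts. Of the 254 and 56 main calls, 156 and 16 were shared without untreated replicate 2, 137 and 13 without untreated replicate 1, 166 and 19 without CDH5+ replicate 1, 63 and 1 without CDH5+ replicate 2, and 105 and 8 without either c-KIT+ array. Without an array, its partner is assumed to vary like the other groups. The replicate numbers share only a name, with correlations of deviations of 0.12, -0.0461 and -0.0153 between groups, and a fit with the replicate block gave 181 higher and 17 lower genes, of which 174 and 16 were also in the main calls. All other alternatives gave counts within 1.5 times. Of the 373 genes picked by the naming rules, not all of which the text names, 151 were called. Of these, 46 were called under every alternative that gave a value. Hp had a difference of -3.29 without untreated replicate 2 (limma adjusted p = 0.0184) and 3.30 without untreated replicate 1 (limma adjusted p = 0.0154), against 0.01 with all arrays. With 2 arrays a group and 3 residual degrees of freedom per gene, small changes could not be called, and genes within background had no measured level.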
